A study of Mus musculus with 9 samples.

Results

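D-type cyclins, their kinases and the inhibitors of these kinases were followed in mouse ovaries over 3 consecutive juvenile days. The 9 genes were taken by symbol from the deposited expression tables, which list 52025 genes. They comprised 5 drivers, namely the D-type cyclins Ccnd1, Ccnd2 and Ccnd3 and the kinases Cdk4 and Cdk6, and 4 inhibitors, namely Cdkn1a, Cdkn1b, Cdkn2c and Cdkn2d. The study compared ovaries of Kunming mice at postnatal day (PD) 14, PD15 and PD16, the days around the first formation of follicular antra, with 3 libraries for each day. No allele, transgene or treatment is given for any group, so PD14 served as the reference day. The question put to the 9 genes was whether drivers or inhibitors of the G1 to S transition changed in transcript level between these days.

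D-type cyclins are made in response to growth signals and activate CDK4 and CDK6, which phosphorylate the retinoblastoma protein and release E2F factors to switch on the genes of S phase. Inhibitors of the INK4 family, such as Cdkn2c and Cdkn2d, bind these kinases and keep cyclins away, whereas the Cip/Kip family, such as Cdkn1a and Cdkn1b, binds cyclin and kinase complexes and mainly restrains CDK2. In the ovary, Ccnd2 is known as the D cyclin that granulosa cells induce in response to follicle-stimulating hormone (FSH) and that they need to proliferate, and Cdkn1b is known to hold back follicle growth and to be required for luteal cells to stop dividing.

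None of the 9 genes passed the test for a difference between days. Between any 2 days 0.678% to 4.25% of all genes tested passed, so this count is near the background. Among the 9 members, the transcript of each class came mainly from a single D cyclin, a single kinase and a single inhibitor. The inhibitor class here holds the 4 members and leaves out Cdkn1c, Cdkn2a and Cdkn2b, which are described below. Cdk4 was the most abundant member at a mean of 112.1 FPKM over the 9 libraries (fragments relative to gene length and to the depth of the library, so that levels of different genes can be compared per length). Ccnd2 followed at 36.5 FPKM and Cdkn1b at 32.9 FPKM. The remaining members lay at 15.8 FPKM (Cdkn2c), 7.78 FPKM (Ccnd3), 7.70 FPKM (Cdkn2d), 6.94 FPKM (Cdk6), 3.46 FPKM (Ccnd1) and 2.55 FPKM (Cdkn1a). Among the 15495 genes tested, 97.5% had a lower mean than Cdk4, whereas 24.0% had a lower mean than Cdkn1a. The ranges over libraries overlapped between Ccnd2 and Cdkn1b, between Ccnd3, Cdkn2d and Cdk6, and between Ccnd1 and Cdkn1a. Within libraries, Ccnd1 lay above Cdkn1a in 9 of 9 and Ccnd2 above Cdkn1b in 8 of 9 (PD16 replicate 3 being the exception), whereas Ccnd3 lay above Cdkn2d in 4 of 9 and Cdkn2d above Cdk6 in 7 of 9.

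The promoters of 3 members are shown because factors known to bind such motifs were measured in the same libraries and are described below. The RefSeq windows (build GRCm38.p6, from 250 bases before to 50 bases after a transcript start, written 5′ to 3′ on the gene's strand) matched 7 of the 9 members with 10 windows in all. Ccnd1 and Ccnd2 had no matching window and were not searched. The Cdk4 window (chr10:127063285-127063584, plus strand) is shown for the E-box CACGTG, the motif bound by MYC family dimers. This window holds 4 copies, beginning 172, 118, 98 and 11 bases before the start. Of the 2 Cdkn2c windows, one (chr4:109665323-109665622, minus strand) is shown for the E2F motif TTTCGCG, beginning 200 bases before the start, and of the 2 Ccnd3 windows one (chr17:47504801-47505100, plus strand) is shown for the forkhead motif GTAAACA, which lies on the opposite strand and reads TGTTTAC in this window, 243 bases before the start. The other window of each of these genes holds none of the motifs searched. Capitals mark these motifs in the lines that follow.
Cdk4 promoter: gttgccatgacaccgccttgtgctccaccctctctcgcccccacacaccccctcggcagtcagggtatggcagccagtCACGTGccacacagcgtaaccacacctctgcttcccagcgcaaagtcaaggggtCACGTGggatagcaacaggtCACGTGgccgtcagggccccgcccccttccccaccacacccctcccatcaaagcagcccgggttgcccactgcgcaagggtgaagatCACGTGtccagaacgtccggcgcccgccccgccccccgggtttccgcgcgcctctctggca
Cdkn2c promoter: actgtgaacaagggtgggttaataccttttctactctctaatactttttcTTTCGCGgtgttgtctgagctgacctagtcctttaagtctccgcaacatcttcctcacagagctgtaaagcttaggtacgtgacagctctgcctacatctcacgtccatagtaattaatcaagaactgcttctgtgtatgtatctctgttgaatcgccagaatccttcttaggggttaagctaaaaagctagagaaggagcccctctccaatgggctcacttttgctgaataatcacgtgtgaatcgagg
Ccnd3 promoter: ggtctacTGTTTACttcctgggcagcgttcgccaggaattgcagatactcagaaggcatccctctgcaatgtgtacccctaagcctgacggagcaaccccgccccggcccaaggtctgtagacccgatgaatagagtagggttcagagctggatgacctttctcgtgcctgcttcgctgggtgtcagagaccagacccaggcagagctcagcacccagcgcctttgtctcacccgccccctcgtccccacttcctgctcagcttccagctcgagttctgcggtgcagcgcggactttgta
CACGTG, which reads the same on both strands, was found in 7.15% of the 32851 RefSeq windows of this length, and at least 4 copies in 8 windows (0.0244%). TTTCGCG was found on either strand in 0.849% of the windows and GTAAACA in 3.65%. TTTGGCG and TTTCCCG, present in 1.56% and 3.39% of all windows, were searched on both strands as further E2F motifs and were in no member's window. Among the 10 windows of members, CACGTG also occurred once in the Cdk6 window and once in the Cdkn2c window shown, 34 bases after its start. The windows of Cdkn1a, Cdkn1b and Cdkn2d held none of the motifs searched. These matches describe the letters of the windows only.

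The libraries held 20.4 to 28.7 M mapped fragments (median 24.2 M), as derived from the FPKM step of a single fragment. At this depth the members were backed by 157 to 299 fragments per library for Cdkn1a (approximate) and by 7847 to 10761 for Cdk4, which gives a counting error of 7.98% at most. All 10 granulosa cell markers and all 10 oocyte markers had a mean FPKM above 1, and so had all 6 theca and interstitial, 6 stromal and 5 endothelial markers. The labels name granulosa cells as the source but ovary as the tissue, and the oocyte markers summed to 1060 to 1551 FPKM per library, so the libraries are treated as whole ovaries. In such bulk RNA, fewer cells of a type and less RNA per cell cannot be told apart. PD16 replicate 3 stood apart from the other PD16 libraries, with 18 S-phase genes lying on average 0.17 below their mean over the 9 libraries on the log2(FPKM + 1) scale, whereas PD16 replicates 1 and 2 lay 0.11 and 0.20 above it. Its 10 granulosa cell markers also lay lowest among the PD16 libraries, 0.19 below their mean over the 9, against 0.04 and 0.03 below in replicates 1 and 2, and the part of these markers in its other values was not tested.

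**Figure D1:**
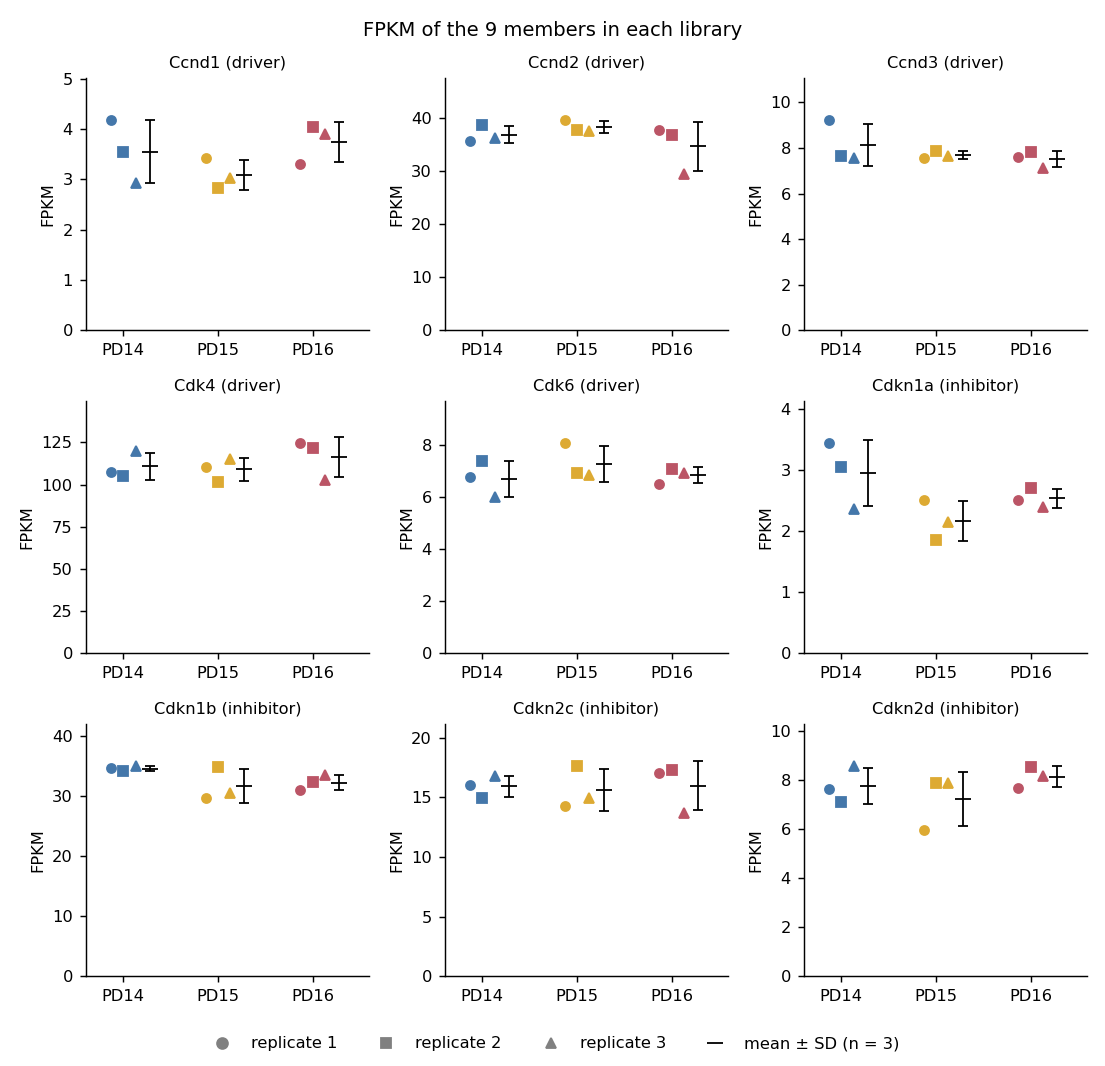
FPKM of each member in each library (points, replicates 1 to 3 of PD14, PD15 and PD16) with the mean and SD of each day (n = 3, black bars), on linear axes that start at 0. Every pair of days overlaps for every member, except that the PD14 libraries of Cdkn1b (34.2 to 35.0 FPKM) lie above its PD16 libraries (31.0 to 33.5 FPKM), and the PD16 replicate 3 library is the lowest for Ccnd2 at 29.3 FPKM.

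Among the drivers, Ccnd2 carried most of the D cyclin transcript. Its FPKM was 35.6, 38.6 and 36.1 in the PD14 libraries, 39.5, 37.6 and 37.5 at PD15, and 37.7, 36.8 and 29.3 at PD16. The 3 days overlapped, and 8 of the 9 libraries lay within 35.6 to 39.5 FPKM with only PD16 replicate 3 below. Means were 36.8 ± 1.61 FPKM at PD14, 38.2 ± 1.11 at PD15 and 34.6 ± 4.57 at PD16 (SD, n = 3). From PD14 to PD16 the change of log2(FPKM + 1) was -0.09 with a 95% interval of -0.29 to 0.11 (limma, adjusted p = 0.579). Without PD16 replicate 3 it was 0.02. From PD14 to PD15 the change was 0.05, with an interval of -0.15 to 0.26 (limma, adjusted p = 0.821), and from PD15 to PD16 it was -0.15, with an interval of -0.35 to 0.05 (adjusted p = 0.508), or -0.04 without PD16 replicate 3. Leaving out 1 library, the change from PD14 to PD15 ran from 0.03 (without PD15 replicate 1) to 0.09 (without PD14 replicate 2).

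Ccnd1, the D cyclin that is widely induced by mitogens, was read at 4.17, 3.55 and 2.92 FPKM at PD14, at 3.42, 2.83 and 3.02 at PD15, and at 3.30, 4.04 and 3.91 at PD16. The PD14 libraries alone spanned nearly the whole range of the 9. From PD15 to PD16 the change was 0.21, the largest among the drivers, with an interval of -0.04 to 0.47 (limma, adjusted p = 0.426). Ccnd3, which shares the kinase partners of the other D cyclins, lay between 7.13 and 9.21 FPKM. Its highest library was PD14 replicate 1, and the other 8 libraries lay between 7.13 and 7.87 FPKM. Ccnd3 means were 8.13 ± 0.936, 7.69 ± 0.160 and 7.53 ± 0.366 FPKM on the 3 days (SD, n = 3), and its largest change, of -0.10 from PD14 to PD16, had an interval of -0.26 to 0.07 (limma, adjusted p = 0.487) and was -0.01 without PD14 replicate 1.

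Cdk4, the main catalytic partner measured, had 107.4, 105.2 and 120.1 FPKM at PD14, 110.5, 101.5 and 115.3 at PD15, and 124.5, 121.6 and 102.9 at PD16. The highest and the second lowest of the 9 values were both from PD16, so the spread within that day covered nearly that of the whole series. Means were 110.9 ± 8.02, 109.1 ± 7.01 and 116.4 ± 11.7 FPKM (SD, n = 3), and the change from PD14 to PD16 was 0.07, with an interval of -0.14 to 0.27 (limma, adjusted p = 0.714), or 0.15 without PD16 replicate 3 (adjusted p = 0.345). Over all alternatives this change ran from 0.02 to 0.15. Cdk6, the second kinase of D cyclins, lay between 5.98 FPKM (PD14 replicate 3) and 8.06 FPKM (PD15 replicate 1). Its means were 6.70 ± 0.692, 7.27 ± 0.680 and 6.84 ± 0.299 FPKM (SD, n = 3). The largest Cdk6 change, of 0.10 from PD14 to PD15, had an interval of -0.08 to 0.29 (limma, adjusted p = 0.600). Leaving out 1 library, it ran from 0.04 (without PD14 replicate 3 or PD15 replicate 1) to 0.17 (without PD14 replicate 2).

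Ccnd2 made up 75.9% ± 2.80 of the summed D cyclin FPKM at PD14, 78.0% ± 0.224 at PD15 and 75.3% ± 2.45 at PD16 (SD, n = 3), with single libraries from 72.7% to 78.2%. Ccnd3 held 15.0% to 18.8% and Ccnd1 5.85% to 9.67%. Both libraries with the lowest Ccnd2 share, PD14 replicate 1 and PD16 replicate 3, had the highest Ccnd1 and Ccnd3 shares. Cdk4 made up 93.2% to 95.3% of the summed FPKM of the 2 kinases, and the ratio of Cdk4 to Cdk6 FPKM ran from 13.7 to 20.1. The ratio of Cdk4 to Ccnd2 FPKM ran from 2.70 to 3.51, with means of 3.02 ± 0.300, 2.86 ± 0.195 and 3.37 ± 0.117 on the 3 days (SD, n = 3). Its PD16 libraries (3.30 to 3.51) lay above its PD15 libraries (2.70 to 3.07), a difference that was not tested. Between these days 19.6% of all single genes tested were separated, and no such share was computed for ratios. The PD14 libraries of this ratio (2.73 to 3.33) overlapped with both days.

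**Figure D2:**
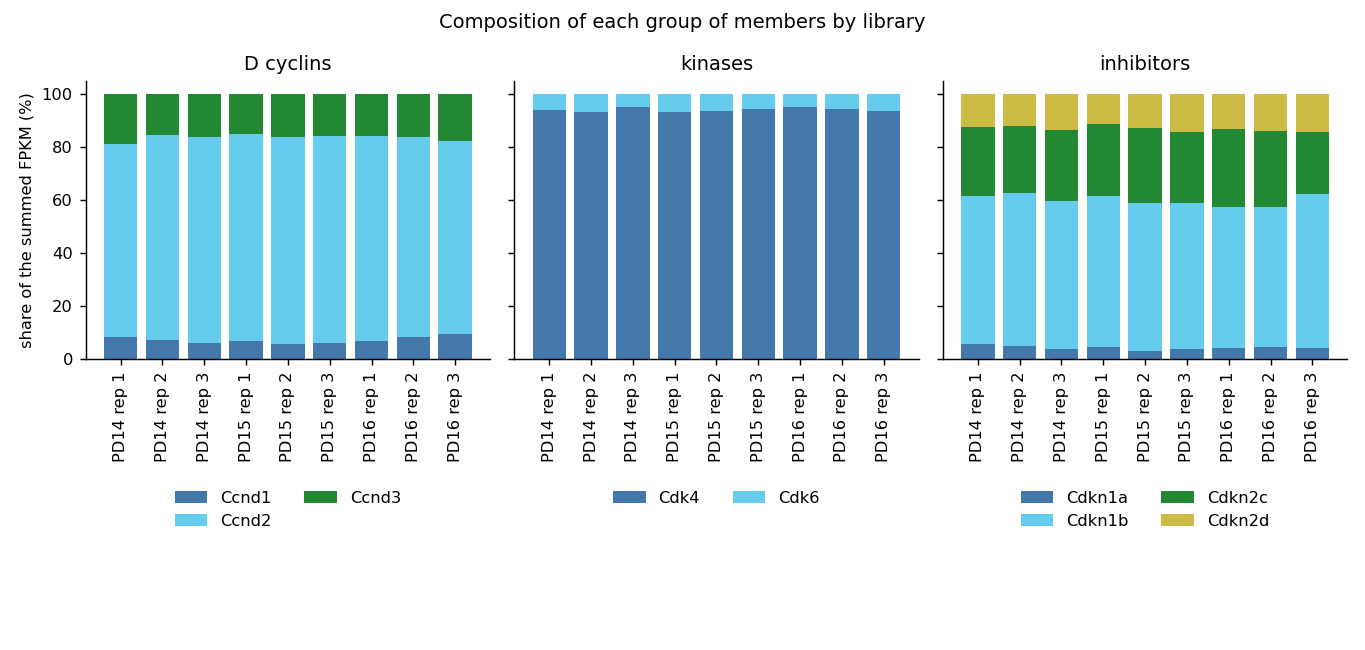
Share of each gene in the summed FPKM of the 3 D cyclins, of the 2 kinases and of the 4 inhibitors, as a percentage (y axis) in each library (x axis, stacked bars). Ccnd2 holds 72.7% to 78.2%, Cdk4 93.2% to 95.3% and Cdkn1b 53.2% to 58.1% of their groups.

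Among the inhibitors, Cdkn1b of the Cip/Kip family was the most abundant, with 34.6, 34.2 and 35.0 FPKM at PD14, 29.7, 34.9 and 30.6 at PD15, and 31.0, 32.3 and 33.5 at PD16. All 3 PD14 libraries lay above all 3 PD16 libraries, whereas PD15 replicate 2 lay among the PD14 libraries. Such separation with lower values at PD16 was found for 13.5% of all genes tested. Cdkn1b was the only 1 of the 9 members whose libraries were separated, in either direction, between any 2 days, where 20.6% of all genes were separated between PD14 and PD15, 28.5% between PD14 and PD16 and 19.6% between PD15 and PD16. Means were 34.6 ± 0.409, 31.7 ± 2.77 and 32.3 ± 1.24 FPKM (SD, n = 3). The change from PD14 to PD16 was -0.10, with an interval of -0.25 to 0.05, and did not pass the test (limma, adjusted p = 0.418). From PD14 to PD15 it was -0.13, with an interval of -0.27 to 0.02 (limma, adjusted p = 0.416), and ran from -0.19 (without PD15 replicate 2, adjusted p = 0.220) to -0.08 (without PD15 replicate 1).

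Cdkn1a, the Cip/Kip inhibitor that p53 induces, showed the largest difference among the 9 members, which also did not pass the test. It was read at 3.43, 3.05 and 2.36 FPKM at PD14, at 2.51, 1.85 and 2.15 at PD15, and at 2.51, 2.70 and 2.39 at PD16. PD14 replicates 1 and 2 lay above all other libraries, but PD14 replicate 3 lay within the range of PD15. Means were 2.95 ± 0.542, 2.17 ± 0.329 and 2.53 ± 0.155 FPKM (SD, n = 3), and the mean at PD15 was 0.735 times that at PD14. On the log2(FPKM + 1) scale, which understates the change of low genes, the change was -0.31 with an interval of -0.57 to -0.05 (limma, unadjusted p = 0.0235, adjusted p = 0.253). Leaving out each library in turn, it ran from -0.42 (without PD14 replicate 3) to -0.23 (without PD14 replicate 1), with adjusted p from 0.196 to 0.457. Blood cell markers were lower at PD15 too, with the 6 genes summed to 104.3 to 135.1 FPKM at PD14 and 47.7 to 63.7 at PD15, of which the globins Hba-a1 and Hbb-bs made up most and the leukocyte marker Ptprc was at a mean of 0.101 FPKM. The 6 theca and interstitial markers lay on average 0.15 to 0.19 above their mean over the 9 libraries on the log2(FPKM + 1) scale at PD14 and 0.14 to 0.23 below it at PD15, with 0 of 6 passing the test and sums that overlapped (1559 to 2191 and 1134 to 1716 FPKM). The part of either group in the Cdkn1a values was not tested.

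For both INK4 inhibitors, every pair of days overlapped. Cdkn2c had 16.0, 15.0 and 16.7 FPKM at PD14, 14.3, 17.6 and 15.0 at PD15, and 17.1, 17.3 and 13.7 at PD16. Each day held both low and high libraries, and the change from PD14 to PD16 was 0.00, with an interval of -0.23 to 0.23 (limma, adjusted p = 1.00), or 0.10 without PD16 replicate 3 (adjusted p = 0.538). Cdkn2d lay between 5.94 FPKM (PD15 replicate 1) and 8.55 FPKM (PD14 replicate 3), with means of 7.76 ± 0.732, 7.21 ± 1.10 and 8.13 ± 0.429 FPKM (SD, n = 3). Its largest change was 0.16 from PD15 to PD16, with an interval of -0.07 to 0.39 (limma, adjusted p = 0.533), or 0.04 without PD15 replicate 1.

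Cdkn1b made up 53.2% to 58.1% of the summed FPKM of the 4 inhibitor members, Cdkn2c 23.7% to 29.3%, Cdkn2d 11.3% to 14.1% and Cdkn1a 2.98% to 5.56%. The summed FPKM of the Cip/Kip members Cdkn1a and Cdkn1b was 37.6 ± 0.445 at PD14, 33.9 ± 2.47 at PD15 and 34.8 ± 1.19 at PD16 (SD, n = 3). Cdkn1c of the same family is described below and is not in this sum. Its means were 11.3, 9.42 and 6.57 FPKM on the 3 days. In the sum of Cdkn1a and Cdkn1b, the 3 PD14 libraries (37.2 to 38.1) lay above the other 6 (32.2 to 36.7). This difference sums values given above and was not tested. Of all single genes tested, 20.6% were separated between PD14 and PD15 and 28.5% between PD14 and PD16. No such share was computed for sums. The summed FPKM of the INK4 members Cdkn2c and Cdkn2d was 23.7 ± 1.61, 22.8 ± 2.62 and 24.1 ± 2.05, with the days overlapping. Summed D cyclin FPKM divided by the summed FPKM of the 4 inhibitor members was 0.792 ± 0.0481, 0.869 ± 0.0929 and 0.778 ± 0.0697 on the 3 days (SD, n = 3). Single libraries ranged from 0.700 (PD16 replicate 3) to 0.963 (PD15 replicate 1), with the days overlapping.

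With drivers and inhibitors apart, 0 of 5 drivers and 0 of 4 inhibitors passed an adjusted p under 0.05 in limma between PD14 and PD15, where 0.678% of all genes tested did. The counts were again 0 of 5 and 0 of 4 between PD14 and PD16, where 4.25% of all genes passed, and between PD15 and PD16, where 0.729% did. In the F test over the 3 days, which 3.03% of all genes passed (22.3% at an unadjusted p under 0.05) and 0 of the 9 members passed, the adjusted p of the members ran from 0.258 (Cdkn1a) to 0.971 (Cdkn2c). At an unadjusted p under 0.05, Cdkn1a passed between PD14 and PD15 and no member passed in the other comparisons, where 14.7% of all genes passed between PD14 and PD15, 22.8% between PD14 and PD16 and 14.1% between PD15 and PD16. At an adjusted p under 0.05, which 0.678% to 4.25% of all genes passed, a count of 0 of 9 is near the background. The 95% intervals of the members reached from -0.57 to 0.29 between PD14 and PD15, from -0.41 to 0.32 between PD14 and PD16 and from -0.35 to 0.47 between PD15 and PD16, so changes of 1 or more on this scale lay outside the intervals of all 9 members.

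The median change of the 4 inhibitors was -0.11 from PD14 to PD15 and 0.10 from PD15 to PD16, comparisons that share the PD15 libraries, with no single change passing the test. Without PD15 replicate 1, Cdkn2c and Cdkn2d turned to 0.03 and 0.02 in the first comparison and Cdkn2c and Cdkn1b to -0.03 and -0.02 in the second, and the sign of Cdkn2c also turned without PD14 replicate 3 in the first and without PD16 replicate 1 or 2 in the second. The drivers had medians of -0.02 and -0.03, and the median of all genes tested was 0.01 in each comparison. The coefficient of variation over the 9 libraries was 6.16% (Cdkn1b) to 10.4% (Cdkn2d) for 7 members, 14.3% for Ccnd1 and 18.4% for Cdkn1a, where the median of all genes tested was 10.8%.

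**Figure D3:**
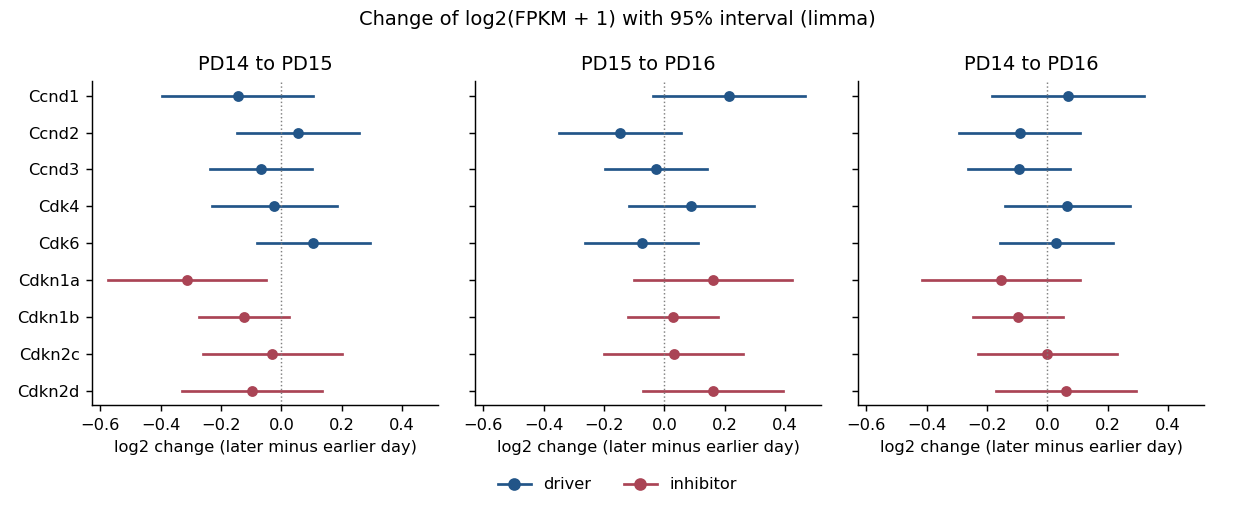
Change of log2(FPKM + 1) between days (x axis, later minus earlier day) for the 9 members (y axis), with points for the limma estimate and lines for its 95% interval, drivers in blue and inhibitors in red. The interval of Cdkn1a from PD14 to PD15 (-0.57 to -0.05) is the only 1 that does not include 0, and it did not pass the test after adjustment over all genes.

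A CDK inhibitor outside the 9 members did change. Cdkn1c, the third gene of the Cip/Kip family and an imprinted growth restrainer, had 12.6, 10.9 and 10.4 FPKM at PD14, 9.73, 9.07 and 9.47 at PD15, and 6.53, 6.68 and 6.52 at PD16. No days overlapped, and the PD16 libraries were the lowest. Means were 11.3 ± 1.14, 9.42 ± 0.333 and 6.57 ± 0.0894 FPKM (SD, n = 3). Cdkn1c fell by 0.69 on the log2 scale between PD14 and PD16 (SE 0.07, limma, adjusted p = 0.00419) and by 0.46 between PD15 and PD16 (adjusted p = 0.0305). The first of these calls held in all 20 alternative analyses, whereas the second was lost in 9, among them the omission of any 1 of the 6 PD15 and PD16 libraries (adjusted p 0.0686 to 0.111), with the change at -0.52 to -0.44 in all 20. The change of -0.23 between PD14 and PD15 did not pass (adjusted p = 0.166). Of the markers, 3 of 4 tested genes of oviduct and surface epithelium also fell between PD14 and PD16, where 4.25% of all genes tested passed. All 7 genes of this group summed to 52.5 to 59.5 FPKM at PD14 and 39.5 to 44.0 at PD16. The 5 endothelial markers summed to 56.6 to 59.7 FPKM at PD14 and 50.9 to 53.2 at PD16, with 0 of 5 passing. Between PD14 and PD16, 1 of the 10 granulosa cell markers rose and 2 fell, with a median change of -0.18. The part of any of these groups in the Cdkn1c values was not tested. The defining oviduct markers Ovgp1, Foxj1 and Pax8 had means of 0.417, 0.269 and 0.101 FPKM. Cdkn2a, an INK4 gene, had a mean of 1.15 FPKM and did not pass the test, and Cdkn2b, at 0.652 FPKM, was not among the genes tested.

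Among 21 upstream regulators, 5 rose and 1 fell between PD14 and PD16, where 4.25% of all genes passed, and 3 rose and 0 fell without PD16 replicate 3. Foxo1, a forkhead factor that FSH signaling inactivates in granulosa cells and that is known to repress Ccnd2 and to induce Cdkn1b, had 31.9, 27.8 and 30.4 FPKM at PD14, 44.2, 43.2 and 36.9 at PD15, and 58.1, 54.0 and 60.3 at PD16. No library of one day overlapped with those of another. Foxo1 rose by 0.92 from PD14 to PD16 (SE 0.08, limma, adjusted p = 0.00419) and by 0.47 from PD15 to PD16 (adjusted p = 0.0462), and its change of 0.45 from PD14 to PD15 did not pass (adjusted p = 0.0538). The rise from PD14 to PD16 held in all 20 alternatives, whereas that from PD15 to PD16 was lost in 13, among them the omission of any library but PD14 replicate 2 (adjusted p 0.0508 to 0.141), with the change at 0.39 to 0.51.

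Of the MYC family, whose proteins are known to activate Ccnd2 and Cdk4 and to repress Cdkn1a, Mycn rose by 0.59 already from PD14 to PD15 (limma, adjusted p = 0.0410) and by 0.60 from PD14 to PD16 (adjusted p = 0.0189). Its means were 17.7 ± 1.67, 27.1 ± 3.62 and 27.3 ± 1.08 FPKM (SD, n = 3). Myc rose by 0.70 from PD14 to PD16 (limma, adjusted p = 0.0294), with means of 17.2 ± 2.56, 20.6 ± 1.66 and 28.6 ± 5.19 FPKM. The Mycn call at PD15 was lost in 13 of 20 alternatives, among them the omission of any library but PD15 replicate 3 (adjusted p 0.0599 to 0.141), with the change at 0.52 to 0.70. The Mycn call at PD16 was lost in 5, including without PD14 replicate 1, PD14 replicate 3 or PD16 replicate 1 (adjusted p 0.0591 to 0.0689), with the change at 0.53 to 0.66. The Myc call was lost in 8, including without any of these 3 or PD16 replicate 3 (adjusted p 0.0643 to 0.0961), with the change at 0.58 to 0.84. From PD14 to PD16, Cdk4, whose promoter window holds the 4 E-boxes shown above, had the interval of -0.14 to 0.27. The part of the MYC family in the Cdk4 values was not tested.

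Esr2, the estrogen receptor of granulosa cells, rose by 0.48 from PD14 to PD16 (limma, adjusted p = 0.0151), from 52.0 ± 4.60 to 72.9 ± 2.58 FPKM (SD, n = 3). Klf4, a factor known to induce Cdkn1a, rose by 0.49 (adjusted p = 0.0472), from 2.53 ± 0.350 to 3.97 ± 0.707 FPKM. Smad3, a transducer of TGF-beta and activin signals, fell by 0.42 (adjusted p = 0.0316), from 49.3 ± 3.44 to 36.7 ± 2.81 FPKM. From PD15 to PD16, the immediate early gene Fos rose by 0.81 (limma, adjusted p = 0.0434), from 0.955 ± 0.329 to 2.40 ± 0.387 FPKM. At this low level the Fos change depends on the pseudocount and was 1.28 with 0.1 and 1.36 with 0.01. These calls were also lost in some alternatives, with the direction kept in each. Esr2 was lost in 2 of 20, after rescaling to TPM (adjusted p = 0.0546) and without PD16 replicate 1 (0.0568), with the change at 0.41 to 0.53. Smad3 was lost in 10 of 20, including without PD14 replicate 1 or 3, PD15 replicate 1 or any PD16 library (adjusted p 0.0504 to 0.105), with the change at -0.47 to -0.35. Klf4 was lost in 14 of 19, including without any library but PD16 replicate 2 (adjusted p 0.0599 to 0.150), with the change at 0.41 to 0.64. Fos was lost in 12 of 19, including without any library but PD14 replicate 2 or PD15 replicate 2 (adjusted p 0.0508 to 0.139), with the change at 0.71 to 1.36. The median of the 21 regulators was 0.03 between PD14 and PD16, or -0.01 without PD16 replicate 3. The other 14 regulators, among them the hormone receptor gene Fshr, the p53 gene Trp53 and the kinase gene Akt1, did not pass in any comparison.

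**Figure D4:**
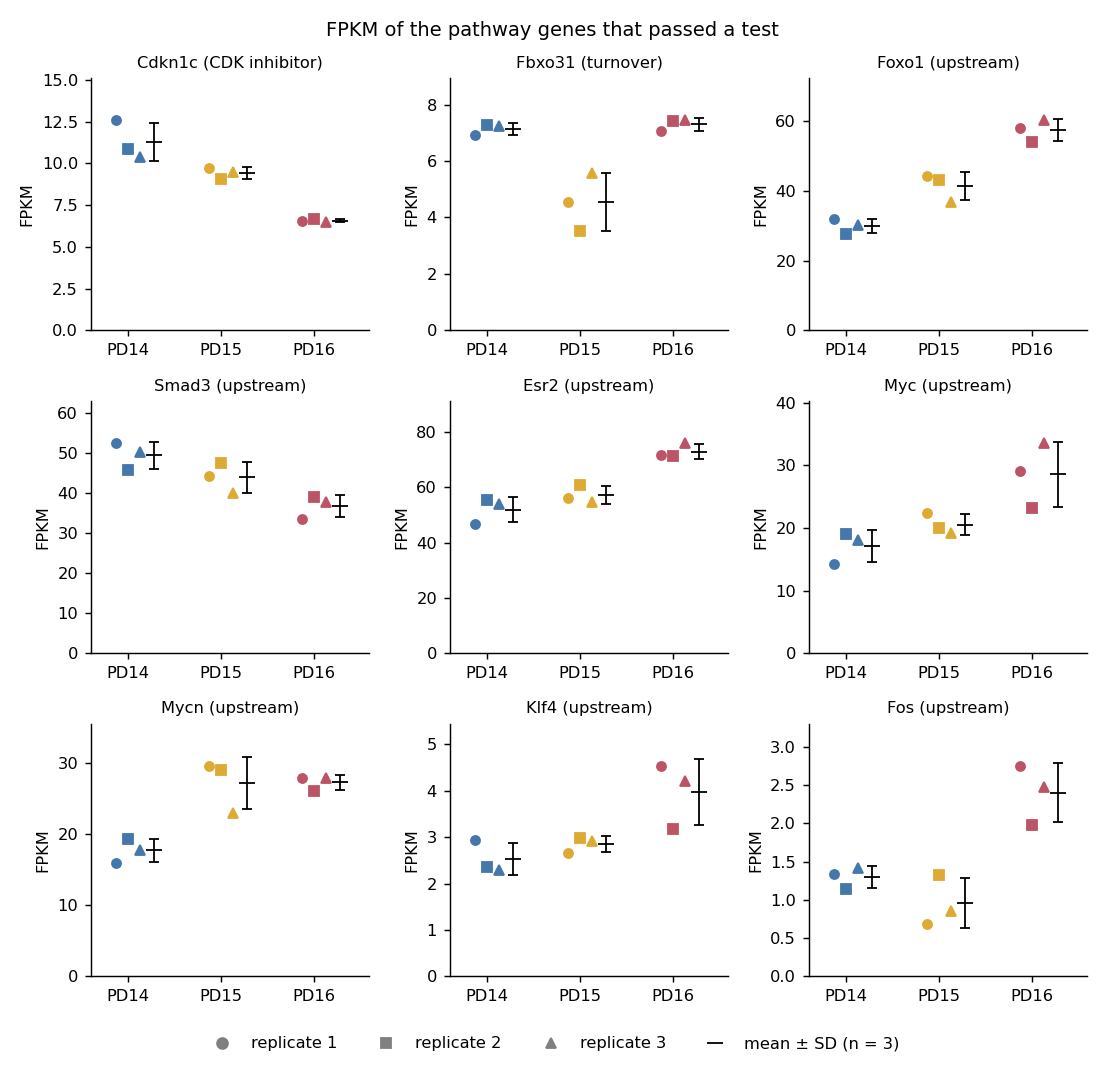
FPKM of the 9 pathway genes that passed a test between days or over the 3 days, in each library (points) with the mean and SD of each day (n = 3, black bars), on linear axes that start at 0. Foxo1 and Cdkn1c are separated on each day, in opposite directions, and Fbxo31 is low in the PD15 libraries (3.53 to 5.58 FPKM).

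Downstream of the kinases, most genes had higher means on the later days, and none passed the test. All 18 S-phase genes, which E2F factors are known to activate, were above PD14 at PD15, with a median of 0.16. Of these, 0 passed an adjusted p under 0.05, where 0.678% of all genes tested did. At PD16, 15 of 18 were above PD14, again with a median of 0.16 and 0 passing, where 4.25% of all genes passed. The median of all genes tested was 0.01 in both comparisons. Genes of a list are read from the same libraries, so the counts by direction in this paragraph are not independent results. The 10 oocyte markers were also higher at PD15, summing to 1450 to 1551 FPKM against 1112 to 1371 at PD14, and were at 1060 to 1130 at PD16. Their part in the S-phase values was not tested. All 13 genes of the RB family and of the E2F factors with their partners lay above PD14 at PD16, with a median of 0.14 and 0 passing. The 8 genes of cyclin E, cyclin A and CDK2 had a median of 0.12 and the 13 mitosis genes a median of 0.21 between PD14 and PD16, with 0 passing.

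PD16 replicate 3 was singled out above from its S-phase values, so the fit without it is a description and no independent support. In that fit, which called 410 of 15491 genes (2.65%) between PD14 and PD16, 5 S-phase genes rose between PD14 and PD16 in limma, namely Cdc45 (0.52), Pcna (0.49), Tyms (0.44), Mcm6 (0.41) and Rrm1 (0.40), with adjusted p between 0.0217 and 0.0382, and the median of the 18 was 0.30. Pcna alone of the 18 also rose between PD14 and PD15 (0.46, adjusted p = 0.0452), where that fit called 92 of 15491 genes (0.594%). With all libraries the Pcna change was the same 0.46 and was not called (adjusted p = 0.110), since the omitted library belongs to neither day. Without the same library Ccne2 (0.44) and Ccna2 (0.47), the cyclins that follow the D cyclins, Tfdp1 (0.39), a partner of E2F factors, and the mitosis genes Top2a (0.60) and Bub1 (0.48) also rose between PD14 and PD16, and the medians were 0.24 for the RB and E2F genes, 0.13 for cyclin E, cyclin A and CDK2, and 0.28 for mitosis. In PD16 replicate 3, the 13 mitosis genes lay 0.01 below their mean over the 9 libraries, and the 5 drivers 0.08 below. Without it, 0 of the 9 members passed in any comparison.

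**Figure D5:**
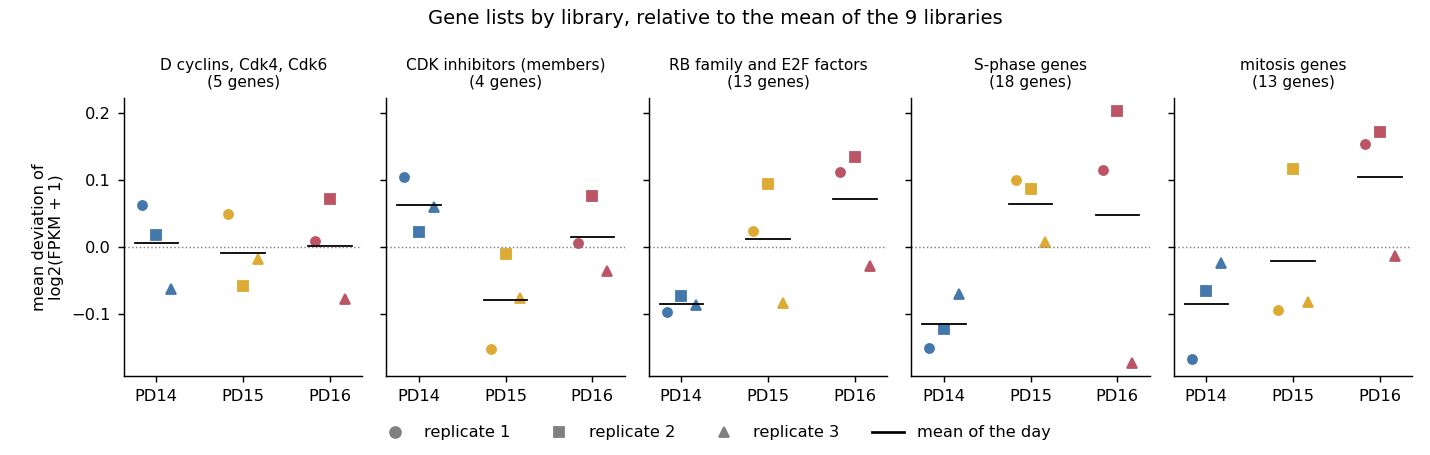
Mean deviation of log2(FPKM + 1) from the mean over the 9 libraries (y axis) for 5 gene lists in each library (points by replicate, x axis by day), with a line at the mean of each day. Drivers stay between -0.08 and 0.07 on all days, whereas the S-phase genes are below 0 in all 3 PD14 libraries and in PD16 replicate 3 (-0.17).

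Of 12 genes in the tables for the turnover of D cyclins and inhibitors, 11 were tested and 0 passed between any 2 days. Fbxo31, an F-box gene whose product is known to direct the degradation of cyclin D1, differed in the F test over the 3 days (limma, adjusted p = 0.0383), a call lost in 10 of 19 alternatives, among them the omission of any library but PD15 replicate 3 (adjusted p 0.0561 to 0.0926). It had 6.91, 7.28 and 7.23 FPKM at PD14, 4.54, 3.53 and 5.58 at PD15, and 7.04, 7.42 and 7.44 at PD16. The PD15 libraries were lower than all the others, whereas the changes of -0.57 from PD14 to PD15 and of 0.60 from PD15 to PD16 did not pass (limma, adjusted p = 0.0683 and 0.0558). The 10 oocyte markers were highest on the same day, summing to 1450 to 1551 FPKM at PD15 against 1112 to 1371 at PD14 and 1060 to 1130 at PD16. Of these markers, 1 of 10 rose from PD14 to PD15, where 0.678% of all genes tested passed. From PD15 to PD16, where 0.729% of all genes passed, 2 of 10 fell. The part of the oocyte markers in the Fbxo31 values was not tested. Skp2, the F-box gene for the degradation of the Cdkn1b protein, is listed at 0 in every library, and its partner Cks1b had a mean of 53.9 FPKM. The annotation and the counting tool are not given in the sources used here. Absent Skp2 transcript and a gene missed in counting therefore cannot be told apart.

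On GRCm38 with GENCODE M21, the abundant members are Ccnd2 (ENSMUSG00000000184, chr6:127125162-127152193, minus strand), Cdk4 (ENSMUSG00000006728, chr10:127063534-127067920, plus strand) and Cdkn1b (ENSMUSG00000003031, chr6:134920401-134925513, plus strand), and Cdkn1a (ENSMUSG00000023067) lies at chr17:29090976-29100727 on the plus strand. Exons of 6 of the 9 members overlap an exon of a gene on the opposite strand, over 2.63% (Cdk6) to 23.4% (Ccnd1) of their exon length. For Cdk4 this is Tspan31, at 22.4 to 29.6 FPKM, which shares 641 bases. Whether strand was used in counting is not given in the sources used here, so fragments in these stretches cannot be told apart. Cdkn1b, Cdkn2c and Cdkn2d have no such overlap.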

How the data were processed

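Ovarian RNA of PD14, PD15 and PD16 mice was sequenced from NEBNext Ultra libraries, with 3 libraries for each day. The authors deposited FPKM in 1 table per library, which were not rescaled here. The submitters' processing notes name HISAT2 2.0.5 and mm10, and the annotation and the counting tool are not given in the sources used here. Depth was derived from the FPKM step of a single fragment with GENCODE M21 exon lengths, and 95.4% to 96.1% of low values (up to 10 fragments) were whole within 0.05. The study describes the 3 ovaries of a day as biologically independent, which the labels do not state, so p-values measure the spread between libraries, which may be partly technical.

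Testing covered the 15495 genes whose mean FPKM exceeded 1 on some day and was done on log2(FPKM + 1) by limma with an intensity trend, with all 9 libraries in 1 model, two-sided, adjusted by the Benjamini-Hochberg method over all genes at 0.05. Intervals are 95% limma intervals for each gene. The method was tested on simulated data. Named genes were the 9 members, pathway list genes with an adjusted p under 0.05 and, for the 2 members with the smallest F test p, the 3 genes most correlated with each. Genes that passed only without PD16 replicate 3, and marker and other genes that did not pass, were named after their values were seen. The members and lists were chosen with earlier results of these data known. Alternatives varied the pseudocount, the filter, the scaling and the limma settings, added a block for replicate number, and omitted each library in turn. Tests ran in limma 3.58.1 under R 4.3.3. Summaries were made with pandas 2.3.3 and NumPy 2.4.6 under Python 3.11.15, and plots with Matplotlib 3.10.9.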

Additional observations from a re-analysis of the deposited data

How the results depend on the processing

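No member passed an adjusted p under 0.05 in the 20 alternatives, and the lowest adjusted p of a member in any of them was 0.188 (Cdkn1a from PD14 to PD15 with array weights). Of 534 alternative values of the 27 member changes, 21 had the opposite sign, none larger than 0.06 in size and none called. For Cdkn2c from PD14 to PD16 the value was -0.000248 and -0.000289 with pseudocounts of 0.1 and 0.01, -0.00691 with median-ratio scaling and -0.0251 after rescaling to TPM. Leaving out each library in turn, the values ran from -0.0339 to 0.166 for Ccnd1, -0.156 to 0.0187 (without PD16 replicate 3) for Ccnd2, -0.0386 to 0.0917 for Cdk6 and -0.0554 to 0.103 for Cdkn2c from PD14 to PD16. From PD14 to PD15 they ran from -0.112 to 0.0162 for Ccnd3, -0.0636 to 0.0349 for Cdk4, -0.114 to 0.0287 for Cdkn2c and -0.157 to 0.0186 for Cdkn2d, and from PD15 to PD16 from -0.0556 to 0.00560 for Ccnd3, -0.0168 to 0.0957 for Cdkn1b and -0.0286 to 0.133 for Cdkn2c.

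The number of all genes called changed more. With 105 called between PD14 and PD15, 659 between PD14 and PD16, 113 between PD15 and PD16 and 469 in the F test, the counts were 29, 172, 24 and 95 without a filter on low values. They were 63 between PD14 and PD15 with a mean FPKM above 5, and 281, 70 and 263 after rescaling to TPM for PD14 to PD16, PD15 to PD16 and the F test. Array weights gave 184 between PD14 and PD15, 237 between PD15 and PD16 and 878 in the F test, and fits of only the 2 days compared gave 47 between PD14 and PD15 and 320 between PD14 and PD16. Without 1 library they ran from 3 (without PD15 replicate 1) to 92 between PD14 and PD15, from 92 (without PD16 replicate 1) to 660 between PD14 and PD16, from 14 (without PD15 replicate 1) to 125 between PD15 and PD16 and from 100 (without PD14 replicate 3) to 354 in the F test. The cause was not tested.

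Of the 86 pathway list genes tested, 1 was called between PD14 and PD15, 7 between PD14 and PD16, 3 between PD15 and PD16 and 6 in the F test. These became 0, 3, 0 and 2 without a filter and 0, 2, 0 and 3 after rescaling to TPM. Between PD14 and PD15 they became 0 without the trend and 3 with array weights, and fits of only the 2 days compared gave 0, 4 and 1. Without 1 library they ran from 0 to 3, from 2 to 14 (without PD16 replicate 3), from 0 to 3 and from 2 to 10. Of the 11 changes of named pathway genes called between 2 days, 9 were lost in some alternative: 9 after rescaling to TPM, 8 without a filter, 7 with the replicate block, 6 in fits of only the 2 days, 3 without the trend, 1 with array weights (Klf4) and 1 with a pseudocount of 0.01 (Fos). With a mean FPKM above 5, Ccnd1, Cdkn1a, Klf4 and Fos were not tested.

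With the replicate number as a block, 24, 227 and 56 genes were called between the days and 127 in the F test, and 0, 4, 0 and 2 pathway list genes. The numbers do not pair the libraries, since deviations of libraries with the same number correlated at -0.21 to 0.16 and those with different numbers at -0.20 to 0.21, and no member was called under the block. For Cdkn1a, Cdkn2d and Ccnd1, read from 157 to 481 fragments per library, the counting error was 4.56% to 7.98%, where their coefficients of variation were 10.4% to 18.4%.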

Other observations

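By the likeness of log2(FPKM + 1) over the 9 libraries, with 15494 genes compared and without a test, the genes most like Cdkn1a were the glucose transporter gene Slc2a3 (Pearson r = 0.92), the unnamed gene model Gm44087 (r = 0.91) and the transcription factor gene Nfil3 (r = 0.91). The genes most like Cdkn1b were the metalloprotease gene Adamts17 (r = 0.97), the ubiquitin-like activating enzyme gene Uba7 (r = 0.93) and the kinase gene Vrk3 (r = 0.92). The points share libraries of the same 3 days, and Slc2a3 (1.07 FPKM), Gm44087 (1.34 FPKM) and Uba7 (1.43 FPKM) were low, so these values describe the libraries only.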
